A study of Rattus norvegicus with 7 samples.

Results

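miR-143 and miR-145 are microRNAs cut from neighbouring hairpins of the rat genome, and each hairpin can give a mature strand from its 5p and its 3p arm. The 4 mature strands, rno-miR-143-3p, rno-miR-143-5p, rno-miR-145-5p and rno-miR-145-3p, were taken by name from the 719 miRNAs on the array, with all of their probes. The cells were rat primary skeletal muscle cells (RSkMC), bought as frozen cells from the limb muscle of newborn rats and kept in low horse serum, the condition in which myoblasts stop dividing and fuse, until day 11. Of the 7 samples, 3 were untreated controls and 4 had recombinant interleukin-6 (IL-6), a cytokine that working muscle secretes, at 1 ng/ml. The sample titles and the series design give these groups, whereas the growth text, which is shared by all samples, names IL-6 for the controls as well. Each sample was read on its own 1-colour Agilent array. The labels do not say whether samples of a group were separate cultures, and the p-values then cover no more than sample-to-sample spread, which may be technical.

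The hairpins are processed from a shared primary transcript, which serum response factor and myocardin drive in smooth muscle. Mature miR-145-5p represses Klf4 and Klf5, factors that keep smooth muscle cells in a proliferating state, and with miR-143-3p it favours the contractile state. Both are known as miRNAs of smooth muscle, fibroblasts and other mesenchymal cells rather than of skeletal muscle fibres. In the RefSeq annotation of GRCr8 the 2 hairpins lie on the minus strand of chromosome 18, separated by 1278 bases, inside the long noncoding RNA gene Carmn, whose synonyms include Mir143hg. The nearest protein-coding genes on either side are Csnk1a1 and Il17b.

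The hairpins are shown because the arms of each are compared further on, and capitals mark the mature strands, the 5p arm first. The Mir143 hairpin of 105 bases is at chr18:57371349-57371453 and the Mir145 hairpin of 88 bases at chr18:57369983-57370070, in the RefSeq table of build GRCr8.
Mir143: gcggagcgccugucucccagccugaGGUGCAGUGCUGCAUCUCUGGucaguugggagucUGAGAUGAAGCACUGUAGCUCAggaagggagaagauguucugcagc
Mir145: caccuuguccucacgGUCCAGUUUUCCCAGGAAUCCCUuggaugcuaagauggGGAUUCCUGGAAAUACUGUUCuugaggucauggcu

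The mature strands follow with the seed, bases 2 to 8 from the 5′ end, in capitals. The seed is the stretch that pairs with target mRNAs.
rno-miR-143-3p: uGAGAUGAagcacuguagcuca
rno-miR-143-5p: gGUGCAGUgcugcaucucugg
rno-miR-145-5p: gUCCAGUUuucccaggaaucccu
rno-miR-145-3p: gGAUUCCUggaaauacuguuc

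The 4 seeds all differ. None of the seeds occurred at bases 2 to 8 of any other of the 693 mature rat miRNAs named in the RefSeq table, so no other miRNA of the array that the table names (651 of 719) shares a seed with the cluster.

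Each strand had 2 probes of 10 spots per array, and the probes of a pair differ by 1 base. The array's probe sequences are shown because the brightness of a strand depended on that base. The capital marks the base that the longer probe adds at its 3′ end.
miR-143-3p, longer probe: tgagctacagtgcttcatC
miR-143-3p, shorter probe: tgagctacagtgcttcat
miR-143-5p, longer probe: ccagagatgcagcaC
miR-143-5p, shorter probe: ccagagatgcagca
miR-145-5p, longer probe: agggattcctgggA
miR-145-5p, shorter probe: agggattcctggg
miR-145-3p, longer probe: gaacagtatttccaggaA
miR-145-3p, shorter probe: gaacagtatttccagga

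All 8 probes paired over their whole length with the 3′ end of their own strand, and the paired stretch was in no other mature miRNA of the table. The longer probe of miR-143-3p spanned bases 4 to 22 and that of miR-143-5p bases 7 to 21. The longer probe of miR-145-5p, of 14 bases, spanned bases 10 to 23 and so did not reach the seed. With the extra base, the probe of miR-143-3p was 3.27 to 3.43 times as bright as the shorter one over the 7 arrays. For miR-145-5p the ratio was 1.60 to 1.74. These ratios hold within a strand, on the same RNA, so an order of strands by brightness is not an order of their amounts.

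Levels below are the intensity of a strand's brighter probe, averaged over its spots, scaled between arrays and put on the log2 scale with a floor of 15.7 intensity units. On the arrays 174 to 207 miRNAs were detected, 168 of them on all 7. On these, 2 arrays stood apart from their groups. The SD over these 168 miRNAs of the log2 difference between arrays was 0.088 to 0.12 among IL-6 replicates 2 to 4, and 0.19 to 0.21 between IL-6 replicate 1 and those 3. Control replicate 3 was nearer to IL-6 replicates 2 to 4, at 0.17 to 0.19, than to the other controls, at 0.187 to 0.233. All arrays shared 1 slide and 1 scan time, with controls in one slide row and IL-6 arrays in the other, so effects of slide row and of IL-6 cannot be told apart.

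The leading strand of the miR-143 hairpin, miR-143-3p, was among the 3 brightest miRNAs on every array. Its log2 level was 13.59, 13.63 and 13.66 on control replicates 1 to 3. With IL-6 it was 13.29, 13.51, 13.59 and 13.61 on replicates 1 to 4. The controls lay close together, IL-6 replicate 1 was the lowest of all arrays, and IL-6 replicates 3 and 4 lay within the range of the controls. On the deposited scale, with no scaling, its intensity ran from 8828 on IL-6 replicate 1 to 14639 on IL-6 replicate 2.

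Between the groups miR-143-3p did not pass. Its mean was 13.63 ± 0.036 (SD, n = 3) in control and 13.50 ± 0.15 (SD, n = 4) with IL-6, a log2 fold change of -0.13 ± 0.082 SE (limma, Benjamini-Hochberg adjusted p = 0.420). The 95% interval of this fold change ran from -0.33 to 0.074, which is a change of -20.3% to 5.27%. Without IL-6 replicate 1 the value was -0.056 ± 0.035 SE (limma, Benjamini-Hochberg adjusted p = 0.346), so most of its size came with that array. The shorter probe gave -0.15, with 11.89 ± 0.072 (SD, n = 3) in control and 11.74 ± 0.15 (SD, n = 4) with IL-6.

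The passenger strand of the same hairpin, miR-143-5p, was far dimmer, and only its longer probe was above background. Its log2 level was 6.39, 6.50 and 6.43 on control replicates 1 to 3. It was 6.57, 6.47, 6.44 and 6.50 on IL-6 replicates 1 to 4. IL-6 replicate 1, the lowest array for miR-143-3p, was the highest for miR-143-5p, and the groups overlapped. The group means were 6.44 ± 0.052 (SD, n = 3) and 6.49 ± 0.055 (SD, n = 4), with a log2 fold change of 0.052 ± 0.041 SE and a 95% interval from -0.047 to 0.15 (limma, Benjamini-Hochberg adjusted p = 0.530). The shorter probe, 1 base less, had 5 of its 70 spots above background and a raw intensity of 6.41 to 12.6, and no fold change was taken from it.

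miR-145-5p, the strand known for its action on Klf4 and Klf5, was bright and spread more within each group than miR-143-5p. Its log2 level was 9.52, 9.45 and 9.26 on control replicates 1 to 3. It was 9.55, 9.23, 9.28 and 9.28 on IL-6 replicates 1 to 4. Control replicates 1 and 2 and IL-6 replicate 1 were high, and the other 4 arrays, control replicate 3 among them, were low. The group means were 9.41 ± 0.13 (SD, n = 3) and 9.33 ± 0.15 (SD, n = 4), with a log2 fold change of -0.079 ± 0.10 SE and a 95% interval from -0.32 to 0.16 (limma, Benjamini-Hochberg adjusted p = 0.753). The shorter probe had the same high and low arrays and gave -0.14.

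For miR-145-5p the 2 arrays that stood apart were also the lowest control, replicate 3, and the highest IL-6 array, replicate 1. Leaving them out, an alternative chosen after the data were seen, therefore separates the groups by the choice of arrays and is given as a description. Without both, its log2 fold change was -0.23 ± 0.032 SE on 2 control and 3 IL-6 arrays, and it was past the threshold (limma, Benjamini-Hochberg adjusted p = 0.0277; range over the alternatives 0.0277 to 1). In that fit 11 of 182 miRNAs were called lower, or 6.04%. Without control replicate 3 alone it was -0.15 and without IL-6 replicate 1 alone -0.15, and neither passed (limma, Benjamini-Hochberg adjusted p = 0.414 and 0.216). In the same fit of 5 arrays miR-143-3p was at -0.039 ± 0.038 SE and miR-143-5p at 0.023 ± 0.041 SE (limma, Benjamini-Hochberg adjusted p = 0.504 and 0.733).

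Set by slide column, the arrays gave unlike values. In column 1 the difference of IL-6 from control was -0.30 for miR-143-3p, 0.17 for miR-143-5p and 0.034 for miR-145-5p. In column 3 it was -0.039, -0.060 and -0.18 in the same order, and in column 4 it was -0.053, 0.064 and 0.014. miR-143-3p was lower with IL-6 in these 3 columns, while the other 2 strands had both signs. Each of the 3 holds 1 array of each group, so these values have no error of their own. Column 2 holds IL-6 replicate 2 and no control, so with the column as a block that array adds nothing to the fold changes. With the slide column as a block the log2 fold change was -0.13 ± 0.072 SE for miR-143-3p, 0.059 ± 0.058 SE for miR-143-5p and -0.043 ± 0.058 SE for miR-145-5p, and none passed (limma, Benjamini-Hochberg adjusted p = 0.374, 0.609 and 0.676).

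**Figure D1:**
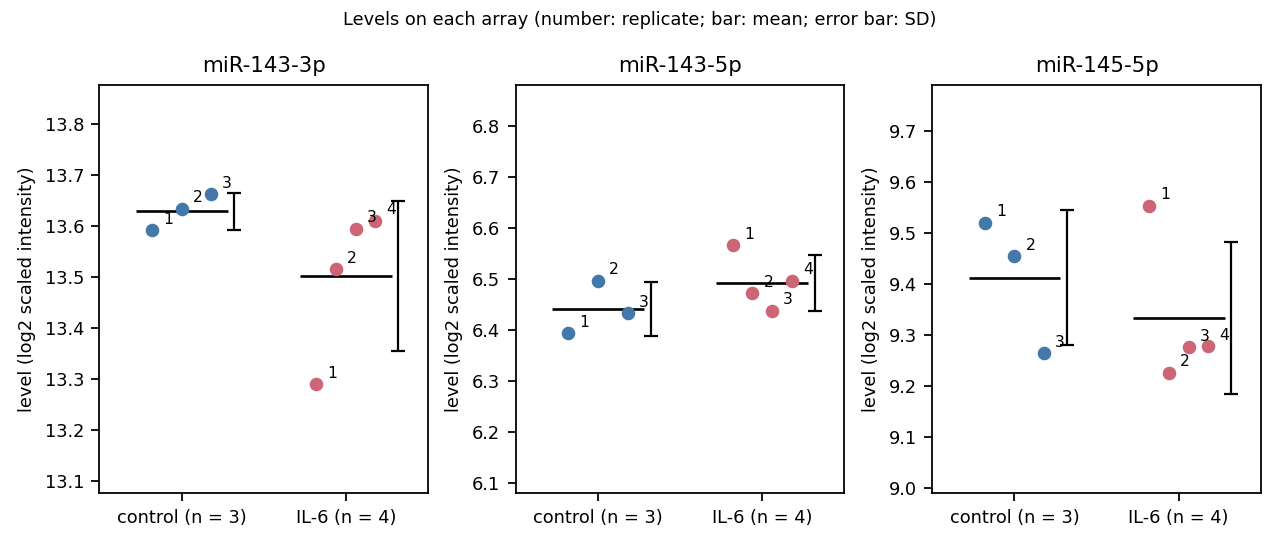
Level of each detected strand on every array, as log2 scaled intensity, for control (n = 3) and IL-6 (n = 4), with the replicate number beside each point, the mean as a bar and the SD as an error bar. The groups overlap for all 3 strands, and IL-6 replicate 1 is the lowest array for miR-143-3p (13.29) and the highest for miR-143-5p (6.57) and miR-145-5p (9.55).

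miR-145-3p, the other arm of the miR-145 hairpin, was detected on none of the 7 arrays. Each of its 2 probes had 0 of 70 spots well above background. The 14 probe means ran from -0.97 to 3.23 intensity units, whereas no probe counted as above background was dimmer than 12.9. Both groups were below background, so no fold change is given.

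Of the 4 strands, 3 could therefore be tested, and 0 of them passed between IL-6 and control (limma, Benjamini-Hochberg adjusted p from 0.420 to 0.753, with 0 at an unadjusted p under 0.05). Over all 181 tested miRNAs, 9 were higher (4.97%) and 8 lower (4.42%) with IL-6, and 49 had an unadjusted p under 0.05 (limma). With the slide column as a block, to which IL-6 replicate 2 adds nothing, the counts were 0 and 0, with 52 at an unadjusted p under 0.05 (limma). They also rested on single arrays: with control replicate 1 left out they became 0 and 0, as they did on leaving out IL-6 replicate 3, with 35 and 41 at an unadjusted p under 0.05 (limma). Leaving out control replicate 2 gave 0 and 2, and leaving out IL-6 replicate 4 gave 1 and 5. None of the 3 had groups that did not overlap, as 40 of the 181 did (22.1%). The median log2 fold change was 0.015 over all tested miRNAs and -0.079 over the 3 strands. When ordered by the size of the fold change, miR-143-3p came 63, miR-145-5p 98 and miR-143-5p 118 of 181. The median SE was 0.067, and the number of arrays limits the precision. These are levels in bulk RNA, where fewer cells of a type and less RNA per cell cannot be told apart.

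The signs of these small values depended on the scaling. With spike-in scaling, for which control probes named dmr were assumed to be the spike-ins, and in which the median of all tested miRNAs moved from 0.015 to 0.18, miR-143-3p was at 0.058 ± 0.15 SE and miR-145-5p at 0.11 ± 0.063 SE (limma, Benjamini-Hochberg adjusted p = 0.782 and 0.327). Both thus lay below that median, as under the percentile scaling. miR-143-5p was at 0.24 ± 0.094 SE, above it (limma, unadjusted p = 0.0438, Benjamini-Hochberg adjusted p = 0.189).

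**Figure D2:**
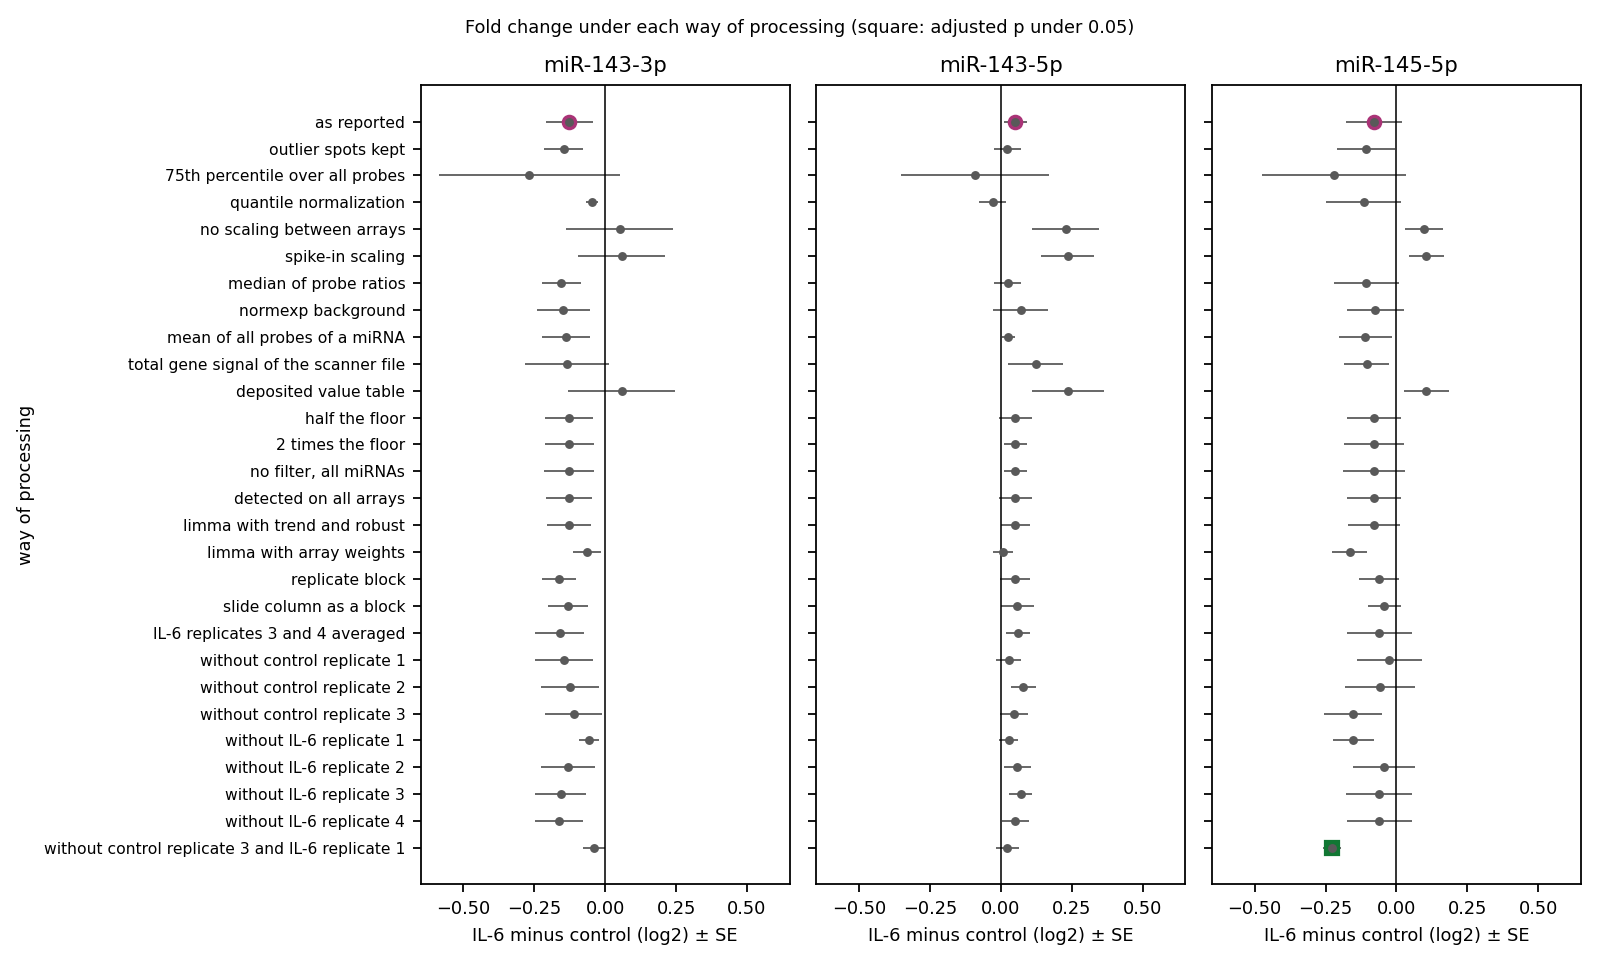
Log2 fold change of IL-6 against control ± SE (x axis) for the 3 detected strands under each way of processing (y axis), with the reported setting coloured and a square where the adjusted p was under 0.05. The one square is miR-145-5p at -0.23 without control replicate 3 and IL-6 replicate 1, and all 3 strands move to the right with no scaling, spike-in scaling and the deposited value table.

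By mean brightness miR-143-3p was number 3 of the 168 miRNAs detected on all arrays. miR-21-5p, a miRNA that STAT3 induces and that is abundant in cultured mesenchymal cells, was first at 13.74 ± 0.11 (SD, n = 7), and miR-125b-5p second at 13.62 ± 0.044 (SD, n = 7). miR-143-3p had 13.56 ± 0.13 (SD, n = 7). Within arrays, miR-21-5p and miR-125b-5p were each brighter than miR-143-3p on 6 of the 7. The exceptions were control replicate 1, where miR-143-3p was brighter than miR-21-5p (13.59 against 13.57), and control replicate 3. There it was brighter than miR-125b-5p (13.66 against 13.61). The next in order, miR-22-3p at 12.76 and miR-23a-3p at 12.75, were dimmer than miR-143-3p on all 7 arrays, as was miR-199a-3p at 12.29. Read by its shorter probe, miR-143-3p would stand at place 9. Of the summed brightness of the 168 miRNAs, miR-143-3p took 8.999% to 10.8% of an array, the lowest share on IL-6 replicate 1.

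miR-145-5p was number 32 of 168, at 9.37 ± 0.14 (SD, n = 7), and number 41 by its shorter probe. Its place by array ran from 30 to 34. Brighter than miR-145-5p on 4 of the 7 arrays each were miR-193a-3p (9.40 ± 0.39, SD, n = 7), let-7e-5p (9.39 ± 0.11, SD, n = 7) and miR-26b-5p (9.25 ± 0.16, SD, n = 7). miR-221-3p (9.25 ± 0.065, SD, n = 7) was brighter than it on 1. miR-99a-5p at 9.70 was brighter on all 7 arrays and miR-107-3p at 9.15 dimmer on all 7. miR-143-5p was number 84 of 168, with places 83 to 89 by array. miR-143-3p, miR-145-5p and miR-143-5p followed in this order on every array.

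**Figure D3:**
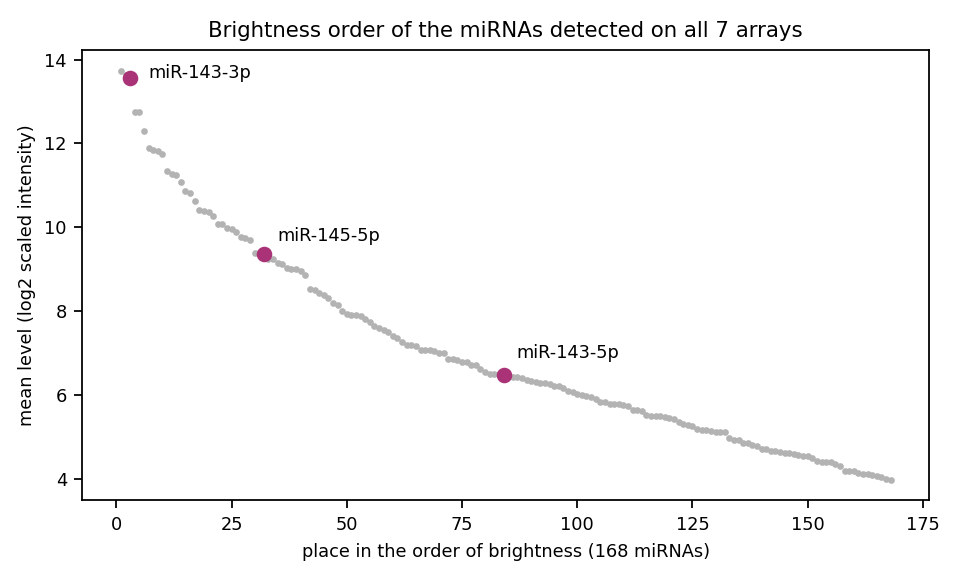
Mean log2 scaled intensity over the 7 arrays (y axis) of the 168 miRNAs detected on all of them, in order of brightness (x axis), with the 3 detected strands of the cluster coloured. miR-143-3p stands at place 3, miR-145-5p at 32 and miR-143-5p at 84.

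The arms of the miR-143 hairpin differed strongly in brightness. The log2 difference of miR-143-3p from miR-143-5p was 7.20, 7.13 and 7.23 on control replicates 1 to 3, which is a 147-fold, 141-fold and 150.0-fold ratio. With IL-6 it was 6.72, 7.04, 7.16 and 7.11 on replicates 1 to 4, or 106-fold, 132-fold, 143-fold and 138-fold. IL-6 replicate 1 had the smallest difference, and IL-6 replicate 3 lay above control replicate 2. A single scaling factor per array cancels in this difference, whereas quantile normalization does not. Each probe's own brightness enters it, so it is not a ratio of molecules.

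The arm difference averaged 7.19 ± 0.048 (SD, n = 3) in control and 7.01 ± 0.20 (SD, n = 4) with IL-6. The change of -0.18 did not pass (exact two-sided permutation test over samples, p = 0.143, adjusted over the 2 differences tested 0.286, where 35 divisions of the arrays allow no p under 0.0286 and, for 1 difference alone, no adjusted p under 0.0571). After quantile normalization the change was -0.018 (exact permutation test over samples, p = 0.857). By slide column the change was -0.47, 0.021 and -0.12 in columns 1, 3 and 4. Without IL-6 replicate 1 it was -0.083 (exact permutation test over samples, p = 0.200).

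The array held both arms of 263 hairpins, and both arms were detected on all arrays for 20 of them, miR-143 among these. For another 96 hairpins 1 arm was detected on all arrays, and miR-145 belongs to that class. Over the 20 the median size of the arm difference was 3.13, and miR-143 came second at 7.08, after miR-21 at -8.81, where the 5p arm is the bright one. Among those of the 20 with the 3p arm the brighter, miR-143 had the widest difference and miR-22, at 6.30, the next. Both places rest on the longer probe of miR-143-3p, at a mean of 13.56 against 11.81 for the shorter one. Read by the shorter probe, with the other hairpins unchanged, miR-143 would stand lower in both orders. Neither order holds the 96 hairpins with 1 arm detected on all arrays, whose differences were not measured and can be wider. IL-6 and control arrays did not overlap in the arm difference of 3 of the 20 hairpins (15%), miR-411, miR-136 and miR-324, and miR-143 was not one of them.

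**Figure D4:**
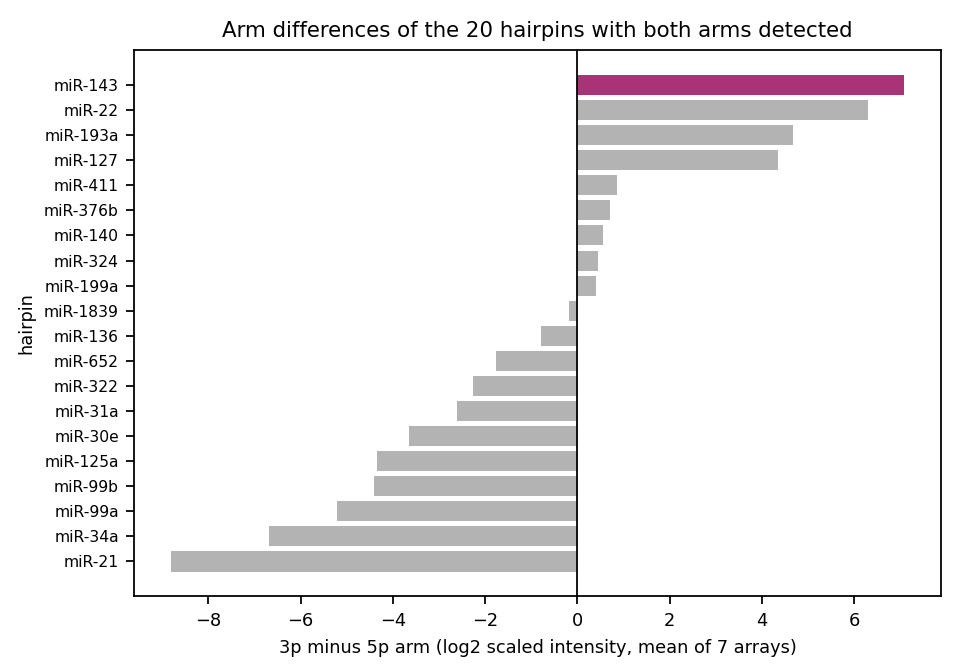
Mean difference of the 3p from the 5p arm over the 7 arrays, in log2 scaled intensity (x axis), for the 20 hairpins with both arms detected on all arrays (y axis). miR-143, coloured, has the longest bar to the side of the 3p arm at 7.08, and miR-21 the longest to the other side at -8.81.

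For the miR-145 hairpin the 5p arm was the bright one, the opposite of miR-143. Because miR-145-3p was below background, only a bound can be given. With miR-145-3p set to the lowest signal above background of each array, unscaled, miR-145-5p was at least 39.1-fold brighter than it in control and at least 44.2-fold with IL-6, as geometric means. The bound moves with that lowest signal, so the groups are not compared by it. It was also read by the longer probe of miR-145-5p, 1.60 to 1.74 times as bright as the shorter one, by which it would be lower. The bright strands of the 2 hairpins, on opposite arms, were miR-143-3p and miR-145-5p.

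These bright strands of the shared transcript were set against each other within each array. The log2 difference of miR-143-3p from miR-145-5p was 4.07, 4.18 and 4.40 on control replicates 1 to 3. With IL-6 it was 3.74, 4.29, 4.32 and 4.33 on replicates 1 to 4. IL-6 replicate 1 had the smallest difference and control replicate 3 the largest, and the other IL-6 arrays lay between control replicates 2 and 3. The means were 4.22 ± 0.17 (SD, n = 3) and 4.17 ± 0.29 (SD, n = 4), and the change of -0.048 did not pass (exact two-sided permutation test over samples, p = 0.914, adjusted 0.914). It turned to 0.097 without IL-6 replicate 1 and to 0.043 without control replicate 3 (exact permutation test, p = 0.400 and 0.933).

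**Figure D5:**
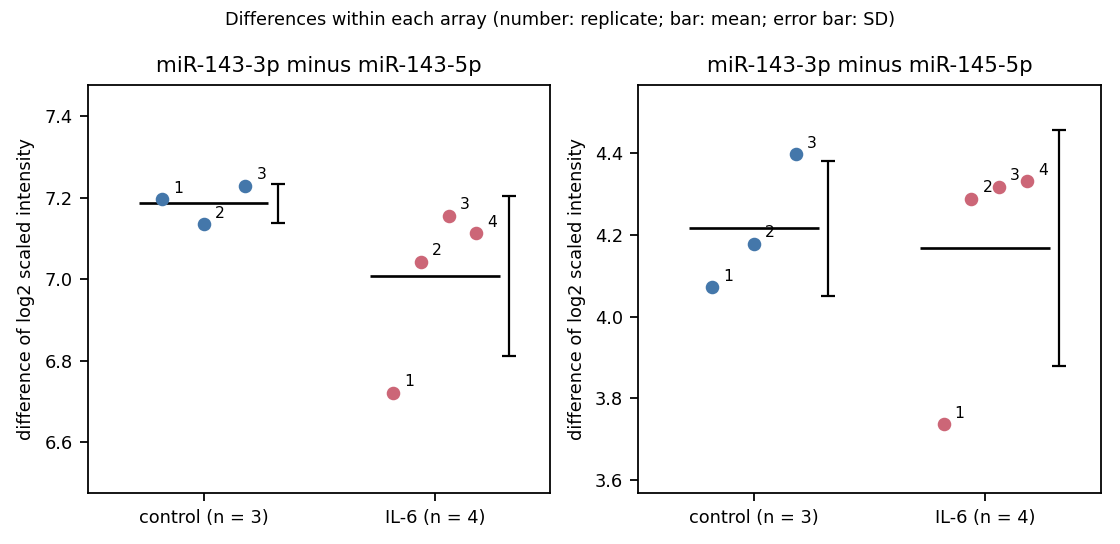
Difference within each array, in log2 scaled intensity, of miR-143-3p from miR-143-5p and of miR-143-3p from miR-145-5p, for control (n = 3) and IL-6 (n = 4), with replicate numbers, the mean as a bar and the SD as an error bar. IL-6 replicate 1 is the lowest point of both panels, at 6.72 and 3.74.

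The levels of the strands were set against each other over the 7 arrays, as a description. Pearson's r between miR-143-3p and miR-145-5p was -0.49 (Spearman's rho -0.32), and between miR-143-3p and miR-143-5p -0.71 (rho -0.25). Without IL-6 replicate 1 these r were 0.23 and -0.038, so over all arrays the negative values depend on that array. Taken within groups, with that array kept, they were -0.82 and -0.60. On control replicates 1 to 3 miR-143-3p rose (13.59, 13.63 and 13.66) while miR-145-5p fell (9.52, 9.45 and 9.26). The negative relation of these 2 strands was thus not confined to IL-6 replicate 1. The points share the scaling factor of each array. Among the other 167 miRNAs detected on all arrays, miR-143-3p was most like miR-23a-3p (r = 0.98), miR-352 (0.96) and miR-23b-3p (0.96), and without IL-6 replicate 1 these r were 0.93, 0.67 and 0.88. miR-23a-3p and miR-23b-3p differ little in sequence and can share signal. miR-145-5p was most like miR-652-5p (r = 0.95), miR-3593-3p (0.95) and miR-30d-5p (0.94), and without IL-6 replicate 1 these r were 0.92 to 0.97. miR-143-5p was most like miR-341 (0.94), miR-125a-3p (0.87) and miR-433-3p (0.81), and without IL-6 replicate 1 these r were 0.87, 0.68 and 0.50. miR-433-3p was at the floor on all arrays but IL-6 replicates 1 and 4, so its r rests on those. By this measure miR-145-5p was in place 139 of 167 for miR-143-3p.

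Other miRNAs with a part in smooth muscle or in mesenchyme were read from lists chosen with earlier results of these arrays known. Of 12 miRNAs of the smooth muscle phenotype, 7 were tested and 0 passed in either direction (all tested miRNAs, 4.97% higher and 4.42% lower), with a median log2 fold change of -0.088 and 2 positive values (all tested miRNAs, 0.015 and 104 of 181 positive). miR-21-5p was at 0.040 ± 0.084 SE. miR-24-3p was at -0.10 ± 0.029 SE, and miR-26a-5p, which acts in transforming growth factor signalling of these cells, at 0.095 ± 0.041 SE. miR-31a-5p was at -0.15 ± 0.042 SE and so, like miR-24-3p, came nearest to the threshold (limma, Benjamini-Hochberg adjusted p = 0.0839 for both). The other 5, miR-1-3p, miR-133a-3p, miR-146a-5p, miR-204-5p and miR-490-3p, were detected on no array.

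Of 12 fibroblast and mesenchyme miRNAs 11 were tested, 1 was higher and 0 lower (all tested miRNAs, 4.97% and 4.42%), with a median of 0.018 and 6 positive values. The one called was miR-152-3p (0.19 ± 0.033 SE; limma, Benjamini-Hochberg adjusted p = 0.0224, range over the alternatives 0.00664 to 1). Its value was positive in all 27 alternatives run and passed in 11 of them. The call was lost on leaving out control replicate 1 (0.17), control replicate 2 (0.19), IL-6 replicate 3 (0.18) or IL-6 replicate 4 (0.18), and with the slide column as a block (0.19). The others of highest level were miR-125b-5p (-0.043 ± 0.033 SE), miR-22-3p (-0.10 ± 0.040 SE) and miR-199a-3p (-0.044 ± 0.076 SE), and none of these passed. The miR-29 strands, which repress collagens, were at 0.15 for miR-29a-3p, 0.35 for miR-29b-3p and 0.16 for miR-29c-3p, and did not pass. miR-214-5p was detected on no array. In both lists the miRNAs are measured in the same RNA as the cluster, and whether they come from the same cells was not tested.

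The labelled cell type was checked with lists of cell type markers, and the striated muscle list covers heart as well as skeletal muscle. All 7 striated muscle markers, which take in miR-206-3p, miR-1-3p, miR-499-5p and the miR-133 and miR-208 strands, were detected on no array, and their brightest probe reached 9.23 intensity units on any array. The endothelial (0 of 2) and epithelial (0 of 8) markers were below detection too. Of 6 blood cell markers only miR-223-3p was detected, on 1 array. Of 7 neural markers 2 were detected on all arrays, miR-128-3p and miR-7a-5p, and the summed intensity of the 7 was 42.2 to 50.4 on control arrays and 44.0 to 61.7 on IL-6 arrays. The 12 miRNAs of the fibroblast and mesenchyme list summed to 34552 to 35714 on control arrays and to 33626 to 35885 on IL-6 arrays. That list was chosen with earlier results known, and miR-125b-5p and miR-22-3p are its brightest members. Its sum is therefore no test of the cell type. miR-143-3p and miR-145-5p were thus bright in RNA without a detectable signal of the striated muscle markers. What share of the cells carried these 2 strands was not tested.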

How the data were processed

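Total RNA with spike-ins was labelled with Cy3, per the labels' protocols, and hybridised to rat miRNA arrays. The deposited scanner files hold spot intensity on a linear scale, background-subtracted and not scaled between arrays, per the file headers, as written by Feature Extraction 10.10.1.1. The deposited value table equals their total probe signal on all 15095 spots of each array (tolerance 0.001). Outlier spots, 2.88% to 3.84% of 14380, were left out; none was saturated. For scaling, the 75th percentile of the 268 probes above background on all arrays (a share of at least 0.5 of spots) was equalised between arrays. Probe means were then raised to the floor, which is the typical dimmest signal still above background (median of the 7 arrays), and put on the log2 scale. A miRNA took its brightest probe and was tested if all arrays of either group detected it. IL-6 and control were fitted in limma 3.58.1 (R 4.3.3), with p adjusted by Benjamini-Hochberg over 181 miRNAs at 0.05. The fit was run on simulated data with independent noise and changes larger than those of the strands. That run therefore does not show how well changes as small as these are found. Differences within an array had exact permutation tests. Spike-in scaling used control probes named dmr, an assumption, as the files do not label the kit's spike-ins.

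The members and lists were chosen with earlier results of these data known. Named were the strands, their 3 neighbours in brightness above and below, the 3 miRNAs of highest r, and in 2 lists those past the threshold up to 4, then the brightest until 4. The miR-411, miR-136 and miR-324 hairpins, the miR-29 strands, and the miR-21 and miR-22 hairpins were named after their values were seen. The files place probes on rn4, and these positions were not used; sequences and GRCr8 positions are RefSeq's. The reported fit did not pair arrays by replicate number. Deviations from group means correlated across miRNAs at 0.52, -0.18 and 0.26 for numbers 1, 2 and 3. Of all pairs of a control and an IL-6 array, the first of these was the highest. Deviations from means of so few arrays depend on one another, so these values do not settle whether numbers pair the arrays. Arrays of the same slide column, a position and no stated pairing, correlated at 0.52, 0.19 and 0.13 for columns 1, 3 and 4. Alternatives covered scaling, background, probe summary, value source, floor, filter, test, blocks and left-out arrays.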

Additional observations from a re-analysis of the deposited data

Results flagged for a closer look

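Of 12 quantities compared over the 4 IL-6 arrays, 4 had 1 array far from the others by Dixon's 95% critical value, which chance does in about 1 in 20. All 4 were IL-6 replicate 1, and 3 of the 4 rest on the same measurement, that of miR-145-5p, so they are not separate. The level of miR-145-5p was 9.55 there and 9.23 to 9.28 on the others (gap over range 0.841), and its brightness rank was 30 there and 33 on each of the others, whose tie gives the ratio of 1. The log2 difference of miR-143-3p from miR-145-5p was 3.74 there and 4.29 to 4.33 on the others (ratio 0.928). On that array the mean signal of the control probes assumed to be spike-ins was 11.74 on the log2 scale, against 11.85 to 11.86 on the other IL-6 arrays (ratio 0.953). Control replicate 1, in the same slide column, was at 11.80, and control replicates 2 and 3 were at 11.86 and 11.84. The values of the strands without IL-6 replicate 1 are given above.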

How the results depend on the processing

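Of 28 alternatives for each strand, 25 kept direction and side of the threshold for miR-143-3p, 26 for miR-143-5p and 24 for miR-145-5p. The cause of the changes below was not tested. With no scaling, spike-in scaling and the value table, miR-143-3p turned to 0.051, 0.058 and 0.058 and miR-145-5p to 0.098, 0.11 and 0.11. There all tested miRNAs had medians of 0.17, 0.18 and 0.20. miR-143-5p turned to -0.090 when the percentile was taken over all probes (median of all -0.12) and to -0.029 after quantile normalization. Without control replicate 3 and IL-6 replicate 1, chosen after seeing the data, miR-145-5p passed at -0.23. With array weights miR-145-5p was at -0.17 ± 0.062 SE and did not pass (limma, unadjusted p = 0.0371, Benjamini-Hochberg adjusted p = 0.106). Leaving out 1 array gave -0.16 to -0.056 for miR-143-3p, 0.027 to 0.080 for miR-143-5p and -0.15 to -0.026 for miR-145-5p. The change of miR-143-3p minus miR-145-5p turned to 0.069 with quantile normalization and 0.19 without those 2 arrays, and ran from -0.12 to 0.097 leaving out 1 array; that of miR-143-3p minus miR-143-5p was -0.018 with quantile normalization, -0.062 without those 2 arrays and -0.23 to -0.083 leaving out 1 array, and scaling by 1 factor per array cannot move it.

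With the mean of all probes or the total gene signal, miR-143-3p ranked 2 in both and miR-143-5p 105 and 101; leaving out 1 array gave rank 3 for miR-143-3p, 84 to 86 for miR-143-5p and 30 to 32 for miR-145-5p.

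The 9 higher and 8 lower miRNAs became 0 and 0 with the all-probe percentile, no scaling, normexp background, the value table, no filter and the slide column block. They became 4 and 0 with spike-in scaling, 3 and 2 with total gene signal, 29 and 18 with array weights, 0 and 3 with the replicate block, 1 and 5 with IL-6 replicates 3 and 4 averaged, and 19 and 11 without the pair of arrays named above. The lower count was 14 with the median of probe ratios, 12 with outlier spots kept and 5 with 2 times the floor. Leaving out 1 array gave 0 to 10 higher and 0 to 7 lower. With the replicate block miR-143-3p was at -0.16, miR-143-5p at 0.051 and miR-145-5p at -0.061, and it changed no call of theirs; the changes of the differences were -0.21 and -0.10. The change of miR-145-5p minus miR-145-3p was not run, as miR-145-3p was below background. Signal over background limits miR-143-5p, read by 1 probe.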
